A study of Mus musculus with 24 samples.

Results

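Gene expression in the mouse olfactory epithelium was compared between mice that smelled a 1:1 mixture of acetophenone and decanal, called the AD mixture, and mice that smelled acetophenone alone. The members are the 6 libraries that the labels give to these groups, 3 per group, of 24 libraries in the series, and all genes of their count table were considered. The study exposed mice to single odorants, to binary mixtures or to no odor, in 2 batches with their own controls. The 12 libraries of the batch used here are no odor, acetophenone, decanal and AD mixture. All mice were wild-type C57BL/6J males of 8 weeks, housed singly and habituated for 4 h in odor-free chambers. They then had 90 min with 10 µL of undiluted odorant on filter paper, or with empty paper for no odor. The labels call the 3 libraries of a group biological replicates. The volume was the same for acetophenone alone and for the mixture, so the contrast adds decanal and at the same time lowers the amount of acetophenone. These 2 changes cannot be told apart. RNA came from the supernatant of homogenised, perfused epithelium after a low-speed spin, detergent and a faster spin, and stranded libraries were made from messenger RNA.

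In the olfactory epithelium, each mature sensory neuron expresses 1 odorant receptor gene. An odorant bound to its receptor acts through the G protein subunit encoded by Gnal and the adenylyl cyclase encoded by Adcy3, and the cyclic AMP made opens the channel that contains the Cnga2 subunit. Sustentacular cells and glands around the neurons carry enzymes that oxidise or conjugate inhaled chemicals, aldehydes and ketones included. Acetophenone is an aromatic ketone and decanal a straight-chain aldehyde.

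Totals ran from 20604837 to 24802492 counts per library over the 12 libraries. Levels are given as CPM, counts divided by a library size that was scaled with TMM factors. These values compare libraries, not genes, since they are not divided by transcript length. The tissue carried its defining markers. Omp, the marker of mature olfactory neurons, stood at 9731, 9797 and 9515 CPM in the acetophenone libraries and at 8875, 9781 and 10946 CPM in the mixture libraries. The sustentacular cytochrome gene Cyp2g1 stood between 1894 and 2600.2 CPM. Of 13 skeletal muscle genes, 5 were tested, and these summed to 5.73 to 6.69 CPM with acetophenone and 6.27 to 7.99 CPM with the mixture. The first principal component of the 12 libraries, with 26.1% of the variance, put acetophenone on the side of no odor and the mixture on the side of decanal. The second, with 15.4%, set acetophenone 1 (35.8) apart from acetophenone 2 (-25.1) and acetophenone 3 (-22.3).

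The mixture libraries held more transcripts of mitochondrial DNA, ribosomal protein genes, and genes of blood, marrow and bone than the acetophenone libraries. More genes of odorant transduction, xenobiotic metabolism and heat shock fell than rose. Of 19525 genes tested with edgeR's quasi-likelihood test, 4947 (25.3%) were called at an adjusted p under 0.05. Of these, 2259 (11.6%) were higher in the mixture and 2688 (13.8%) lower. Most differences were small: 423 of the rises and 27 of the falls exceeded 2-fold, and the median log2 fold change of all genes was 0.02. The 3 mixture libraries lay wholly above or wholly below the 3 acetophenone libraries in 7272 genes (37.2%), 3581 (18.3%) of them higher and 3691 (18.9%) lower. These shares of all genes are the background against which each gene list below is read. The lists and their members were chosen with earlier results of these data known, so these comparisons describe the lists and do not test them.

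**Figure D1:**
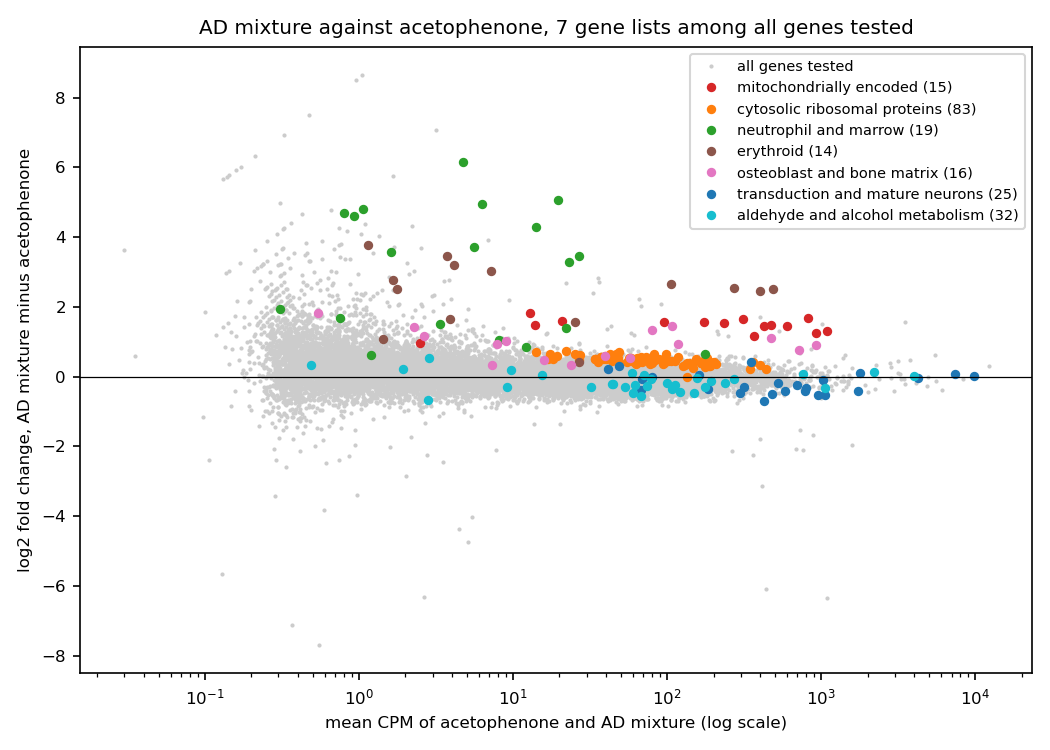
Each point is 1 of 19525 tested genes, plotted by its mean CPM over acetophenone and AD mixture (log scale) and by its log2 fold change, mixture minus acetophenone. Coloured points are the tested members of 7 gene lists. The marrow, erythroid and mitochondrially encoded lists lie above 0, and the ribosomal protein list forms a narrow band just above 0.

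Transcripts of the mitochondrial genome, which encode core subunits of the respiratory chain and the mitochondrial ribosomal RNAs, took 0.306%, 0.325% and 0.259% of counts in the acetophenone libraries and 0.791%, 0.751% and 0.881% in the mixture libraries. The groups did not overlap, and the means differed by 0.511 percentage points. The exact permutation test gave p = 0.1 (two-sided), the smallest value that 3 against 3 libraries allow. Of 15 such genes tested, 14 rose and 0 fell, with a median log2 fold change of 1.49. mt-Nd1, a subunit of complex I, stood at 252, 264 and 234 CPM with acetophenone and at 676, 649 and 775 CPM with the mixture. Every mixture library was more than 2 times above every acetophenone library, and the log2 fold change was 1.48 (SE 0.08, adjusted p = 3.92e-08). mt-Rnr2, the large ribosomal RNA, rose by 1.64 (SE 0.11) from 147, 166 and 137 to 483, 429 and 492 CPM. mt-Nd6, encoded on the other strand, rose by 1.57 (SE 0.10), and its reads cannot be told from those of its neighbours where counting did not use strand, which the sources used here do not state. mt-Co1 and mt-Cytb, of complexes IV and III, rose by 1.31 and 1.24, and mt-Atp6, of the ATP synthase, by 1.68. The no-odor mean of mt-Nd1 was 214 CPM and the decanal mean 658 CPM.

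Nuclear genes of the respiratory chain moved less. Of 80 tested, 58 rose and 4 fell, with a median of 0.39. Ndufa1, a complex I subunit, stood at 39.5, 38.4 and 37.5 CPM with acetophenone and 58, 61.2 and 67.5 CPM with the mixture, a log2 difference of 0.69 (SE 0.07, adjusted p = 1.23e-05). Its groups did not overlap. The genes of this list have short transcripts, with a median of 891.5 bases for the longest one. With per-library offsets for transcript length and GC content, 19 rose and 6 fell, the median was 0.06, and Ndufa1 stood at 0.22 and was not called (adjusted p = 0.0524). The mitochondrially encoded list kept 14 rises, with a median of 1.21. Of 77 genes of the mitochondrial ribosome, 41 rose and 2 fell, and with the offsets 16 and 6.

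Genes of the cytosolic ribosome rose together: 82 of 83 tested rose and 0 fell, with a median log2 fold change of 0.48. With the length and GC offsets 50 rose and 0 fell, and the median was 0.19. Messenger RNAs of this group typically start in a run of pyrimidines through which their translation is controlled. The letters CTTTC or CTTCC, read on the gene's strand within 5 bases before to 10 bases after the start, were in 18 of 65 matched genes of the list (27.7%), and in 5.48% of 27025 RefSeq genes. The other matched members lack these letters in this window. The 30 bases around the RefSeq start of 5 members that hold them are shown, with the matched letters in capitals and the start after base 15 (RefSeq, GRCm38.p6, matched by symbol).
Rpl35 (chr2:39005117-39005146, minus strand): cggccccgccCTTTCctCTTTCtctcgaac
Rplp2 (chr7:141447636-141447665, plus strand): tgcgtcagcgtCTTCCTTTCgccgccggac
Rpl7a (chr2:26910792-26910821, plus strand): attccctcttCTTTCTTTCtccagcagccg
Rps23 (chr13:90923107-90923136, plus strand): gccttcggctgggcggggCTTCCcgcaatg
Rps10 (chr17:27635230-27635259, minus strand): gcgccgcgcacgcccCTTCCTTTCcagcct
In Rps23 the matched letters lie past the start and the first bases there are not pyrimidines.

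All 5 rose. Rpl35, of the large subunit, stood at 64.5, 63.3 and 62.4 CPM with acetophenone and at 100.3, 94.6 and 104 CPM with the mixture. The mixture libraries were all higher, by 0.65 in log2 units (SE 0.05, adjusted p = 1.66e-06), and by 0.39 with the offsets. Rps23 rose by 0.56 (SE 0.05), Rplp2, of the ribosomal stalk, by 0.55, Rps10 by 0.58 and Rpl7a by 0.39. Rps19, a small-subunit gene without a printed sequence, rose by 0.57 (SE 0.05) from 96.9, 92.5 and 92 to 142, 132 and 145 CPM. Of 16 translation factors 13 rose and 1 fell. Eef1a1, which delivers transfer RNAs to the ribosome, rose by 0.32 (SE 0.05), Eef1b2 rose by 0.45, and Eif3l, an initiation factor subunit, fell by 0.32. Tpt1, a translationally controlled messenger of the same pyrimidine-tract class, rose by 0.36 (SE 0.06).

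Genes of neutrophils and their marrow precursors had the largest fold changes. Of 19 tested, 17 rose and 0 fell, with a median of 3.47. Camp and Ngp, which encode granule proteins made by marrow precursors, rose by 6.17 (SE 0.51) and 5.06 (SE 0.39). Camp had 6, 2 and 1 counts in the acetophenone libraries and 179, 144 and 304 in the mixture libraries. Ngp had 60, 12 and 11 counts against 794, 650 and 1129. For both genes the lowest mixture library was far above the highest acetophenone library, and the fold rests on few acetophenone counts. The precursor proteases Elane and Ctsg rose by 4.95 and 4.60, and the peroxidase gene Mpo by 4.28. S100a9, a subunit of calprotectin, the calcium-binding complex of neutrophils, stood at 7.17, 3.35 and 2.67 CPM with acetophenone and at 51.5, 44.1 and 51.2 CPM with the mixture, and rose by 3.47 (SE 0.24, adjusted p = 6.31e-07). Its no-odor mean was 9.92 CPM and its decanal mean 33 CPM, so the acetophenone mean was the lowest of the 4 groups. Acetophenone against no odor was not called for S100a9 in the same model (adjusted p = 0.412). Its partner S100a8 rose by 3.27 (SE 0.29). Chil3, a chitinase-like protein of neutrophils and macrophages, rose by 3.73 (SE 0.25). Fcnb, a lectin of marrow precursors, had 5 counts in all with acetophenone and 138 with the mixture, Prg2, the major basic protein of eosinophils, had 15 and 280, and Ms4a3, of myeloid progenitors, had 7 and 141.

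Red cell genes rose in the same libraries: all 14 erythroid genes tested were called higher, with a median of 2.54. Hbb-bs, a beta-globin gene, stood at 228, 84.3 and 126 CPM with acetophenone and at 671, 961 and 849.9 CPM with the mixture, a log2 difference of 2.50 (SE 0.26). Acetophenone 1 was the highest of its group but still below every mixture library. Hba-a1 and Hbb-bt rose by 2.55 and 2.66, and reads of the near-identical globin copies can be split between them. Genes of red cell precursors rose as well: Alas2, the heme-synthesis enzyme, by 1.58 (SE 0.19), Klf1, a transcription factor, by 1.66, and Slc4a1, the anion exchanger, by 3.03. Ppbp, a platelet chemokine gene, rose by 3.91 (SE 0.43).

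Bone genes rose as well. Of 16 osteoblast and bone matrix genes 15 rose, and of 8 osteoclast genes 5, with none lower in either list. Bglap, which encodes osteocalcin, stood at 65.3, 56.5 and 52.2 CPM with acetophenone and at 183, 150.1 and 140.2 CPM with the mixture. The groups were wholly apart, and the log2 fold change was 1.44 (SE 0.10, adjusted p = 9.48e-07), or 0.96 with the offsets. Bglap2, a close copy whose reads may be split with Bglap, rose by 1.33. Spp1, the bone and macrophage phosphoprotein osteopontin, rose by 1.11 (SE 0.09), Ibsp by 0.92, and the collagenase Mmp13 by 1.24 (SE 0.10). The osteoclast genes Acp5, Ctsk and Mmp9 rose by 1.46, 1.19 and 1.38. Of 16 macrophage genes 12 rose, among them C1qa (complement) at 0.83 and Tyrobp (an immune receptor adaptor) at 1.11, and of 17 lymphoid genes 9 rose, with the immunoglobulin heavy chain Ighm at 1.23. Without acetophenone 2 the lymphoid rises numbered 4, and 6 without mixture 1, mixture 2 or acetophenone 1 (each left out alone), 11 without mixture 3.

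Summed levels of the erythroid, marrow and bone matrix lists did not overlap between the groups. The erythroid genes summed to 253 to 659 CPM with acetophenone and 1861 to 2614 CPM with the mixture. The neutrophil and marrow genes summed to 153 to 201 and 382 to 547 CPM, the osteoblast genes to 1686 to 1934 and 2645 to 4034 CPM. With no odor the neutrophil and marrow genes summed to 206 to 649 CPM, a range that holds that of the mixture. Their list includes Ltf, which is counted in the respiratory epithelium list too. The lymphoid genes overlapped, at 332 to 596 and 590.0 to 1183 CPM. Cartilage, fibroblast and vascular genes moved less. Of 11 cartilage genes 3 rose, of 16 fibroblast genes 7, of 16 endothelial and mural genes 3, and of 14 basement membrane genes 0. In bulk tissue, more cells of a type and more RNA per cell cannot be told apart. The part of these cells in the other differences was not tested. With the scaling computed without the mitochondrially encoded, ribosomal protein, erythroid and neutrophil genes, 4966 genes were called.

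**Figure D2:**
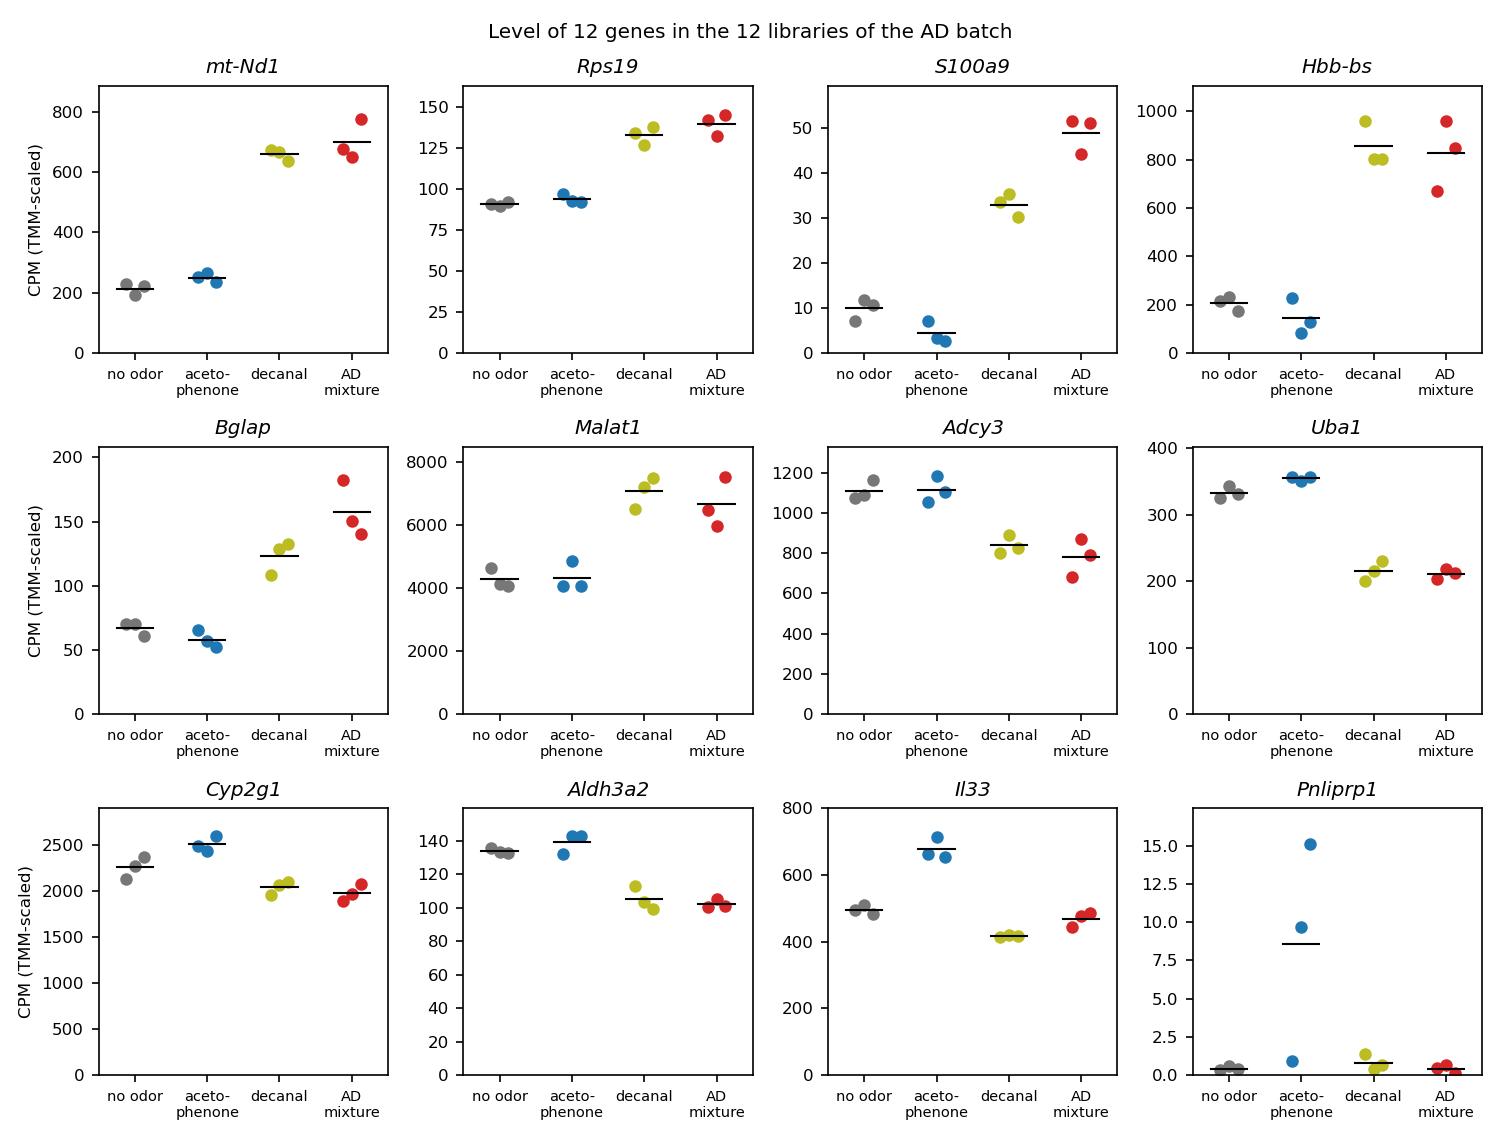
Level of 12 genes in each of the 12 libraries, in CPM on linear axes from 0, with 1 point per library, 3 per group, and a bar at the group mean. mt-Nd1, Rps19, S100a9, Hbb-bs, Bglap and Malat1 are higher in the mixture than with acetophenone in every library, and Adcy3, Uba1, Cyp2g1, Aldh3a2, Il33 and Pnliprp1 are lower.

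Several nuclear RNAs were higher in the mixture too. Of 8 nuclear noncoding RNAs tested, 5 rose and 0 fell. The rises numbered 2 without mixture 3, acetophenone 2 or acetophenone 3, 3 without mixture 2, and 3 with the offsets. Malat1, an abundant RNA of nuclear speckles, stood at 4059.5, 4837 and 4054 CPM with acetophenone and at 6477, 5968 and 7520.5 CPM with the mixture, a log2 difference of 0.62 (SE 0.08, adjusted p = 7.75e-05), and 0.65 with the offsets. Kcnq1ot1, the antisense RNA of an imprinted locus, rose by 0.92 (SE 0.11), with the same limit on strand. Neat1, the scaffold of paraspeckles, was not called, at 0.07 (adjusted p = 0.62), and stood at -0.14 with the offsets. Of 29 spliceosome and speckle genes 15 rose and 0 fell (9 and 0 with the offsets), with Srrm2, a speckle scaffold, at 0.40 (SE 0.06) and Snrpd2, a core protein of the small nuclear particles, at 0.43.

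Direction varied with transcript length across the whole table, but not in a steady order. The median length of the longest transcript was 1621 bases for genes that rose, 3690.5 bases for genes that fell and 2863 bases for all genes tested. The median log2 fold change was 0.51 below 500 bases, 0.32 from 500 to 1000, -0.10 from 4000 to 6000, 0.01 from 6000 to 10000 and 0.13 from 10000 bases. In that last class 18.9% of genes were called higher and 6.05% lower. Across 19028 genes the Spearman correlation of length with log2 fold change was -0.28, given as a description, since genes share libraries and are not replicates. With the length and GC offsets 1676 genes (8.58%) rose and 2116 (10.8%) fell, and 3174 of the 4947 calls were kept in the same direction. Values "with the offsets" refer to that fit, and the cause of the length trend was not tested.

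**Figure D3:**
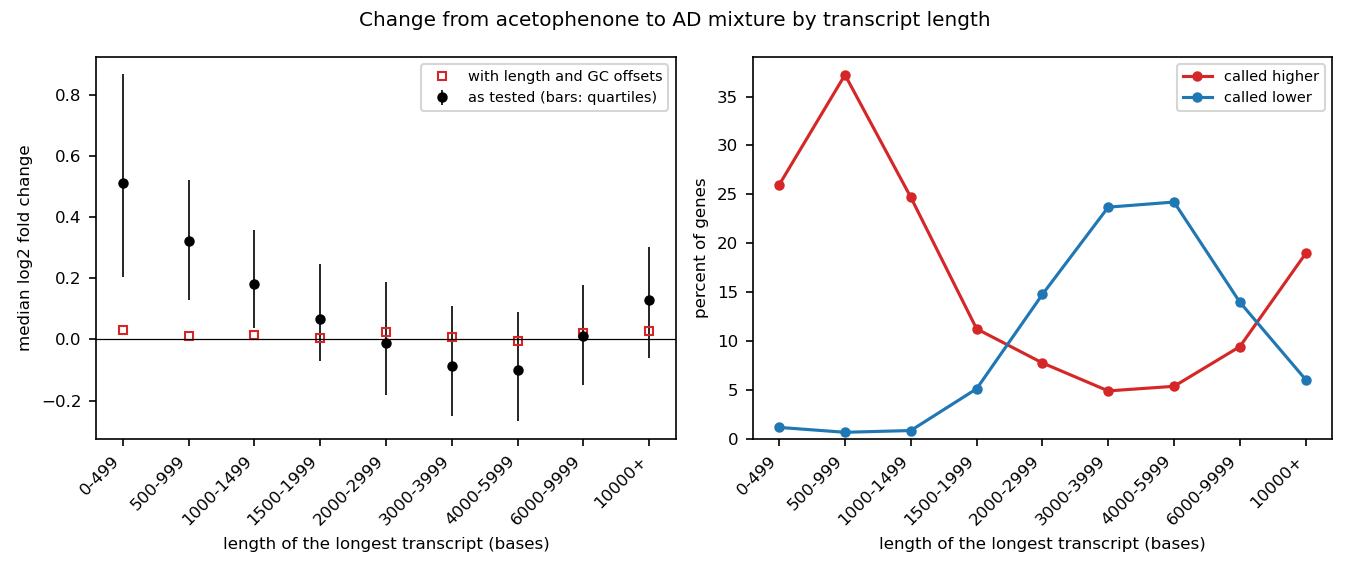
Left, median log2 fold change (mixture minus acetophenone) by length of the longest transcript in bases, as tested (black, bars from the lower to the upper quartile) and with length and GC offsets (red squares). Right, percent of genes called higher and lower in each length class. Rises are most frequent from 500 to 1000 bases (37.2%) and falls from 4000 to 6000 bases (24.2%).

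In the sensory neurons, many genes of the transduction cascade fell while Omp was not called. Of 25 genes of transduction and mature neurons, 13 fell and 3 rose, with a median of -0.25. With the offsets 10 fell and 2 rose. Gnal, the stimulatory G protein subunit, stood at 1943, 1971 and 1961 CPM with acetophenone and at 1295, 1581 and 1564 CPM with the mixture. Adcy3, the cyclase, stood at 1055, 1181 and 1105 CPM and 679, 869 and 789 CPM. Both were lower in every mixture library, with mixture 1 lowest, and the log2 fold changes were -0.40 (SE 0.07, adjusted p = 0.000789) and -0.52 (SE 0.08, adjusted p = 0.000165). Pde1c, the ciliary phosphodiesterase that ends the cyclic AMP signal, fell most of the list, from 523, 541 and 520.2 to 287, 359 and 329 CPM, by 0.70 (SE 0.07). Ric8b, which stabilises the Gnal protein, fell by 0.53 (SE 0.08), Pde4a by 0.42, the exchanger gene Slc24a4 by 0.39, and Cnga2 by 0.32, from 870.4, 893 and 893 to 585, 782 and 762 CPM. Cnga2 stood at -0.22 with the offsets and was not called. Gng13, a G protein gamma subunit with a short transcript, rose by 0.42 and stood at 0.06 with the offsets, not called. Omp differed by 0.03 (SE 0.06, adjusted p = 0.764), and its groups overlapped. Without mixture 3 it stood at -0.06, not called.

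Genes that govern which receptor a neuron expresses, and its transport, fell more often than they rose: 7 of 22 fell and 2 rose. With the offsets 5 fell and 2 rose, and the median went from -0.12 to -0.05. Rtp1, the chaperone that carries receptors to the membrane, fell by 0.41 (SE 0.07). Kdm1a, the demethylase active at receptor choice, fell by 0.40, Ebf2, a transcription factor with sites at receptor promoters, by 0.47, and Setdb1, a histone methyltransferase, by 0.52. Atf5, the stress factor made when a receptor is first expressed, rose by 0.50 (SE 0.09). Of 20 immature neuron genes 4 rose and 4 fell. The rises numbered 1 without acetophenone 3 and 2 without acetophenone 2. Gap43, the growth-cone marker, was not called, at 0.14 (adjusted p = 0.24), and the microtubule regulators Dpysl5 and Crmp1 fell by 0.64 and 0.44. Of 22 axon guidance genes 3 rose and 3 fell.

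Genes whose level follows the activity of olfactory neurons did not move together. Of 10 tested, 2 rose and 2 fell. S100a5, a calcium-binding protein of active olfactory neurons, stood at 636, 719.8 and 566 CPM with acetophenone and at 838, 743 and 943 CPM with the mixture, rose by 0.39 (SE 0.09), and stood at -0.08 with the offsets. Pcp4l1, a calmodulin-binding peptide, stood at 1354, 1799 and 1654 CPM and 1317, 1205 and 1386 CPM and fell by 0.30 (SE 0.08, adjusted p = 0.0139). That call ended without acetophenone 2, at -0.22. Plk2, a kinase induced by activity, fell by 0.38 (SE 0.05). Pcdh10, an adhesion protein, rose by 0.67 (SE 0.19), a call lost without mixture 1 (0.57), acetophenone 1 (0.54) or acetophenone 3 (0.61). Kirrel2, an axon-sorting adhesion gene, ranged from 268 to 551 CPM within acetophenone alone and was not called, at 0.14 (adjusted p = 0.629). It stood at -0.02 without mixture 2, at -0.07 without acetophenone 1, and was called at 0.46 without acetophenone 2. Lrrc3b, a leucine-rich repeat gene, was not called either, at 0.23 (adjusted p = 0.0974), but was called at 0.39 without acetophenone 2 and, with no low-count filter, at 0.23 (adjusted p = 0.00296).

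Of 34 immediate early genes 6 rose and 1 fell. Only 1 rose without mixture 2, acetophenone 1 or acetophenone 2, 2 without mixture 1, 4 without acetophenone 3, 5 without mixture 3, and 3 with the offsets. The fall was Jun, an AP-1 subunit chosen after its value was seen, at -0.15 (SE 0.05), called without mixture 2 and in none of the other 5 fits that leave out a library (-0.16 to -0.13), nor with the offsets (-0.05) or no low-count filter (-0.16). The rises included Junb at 0.28 and Btg2 at 0.35. Junb lost its call with the offsets (0.19), in the fits without any 1 acetophenone library (0.25 to 0.30), and without mixture 1 (0.23) or mixture 2 (0.25). Btg2 lost it without mixture 2 (0.23), acetophenone 1 (0.28) or acetophenone 2 (0.30). Fos stood at 6.64, 8.24 and 10.0 CPM with acetophenone and at 11.5, 22.7 and 8.42 CPM with the mixture, highest in mixture 2, with overlapping groups. Its log2 fold change was 0.77 (SE 0.29, adjusted p = 0.0609). Without mixture 3 it was called at 1.03, and without mixture 2 it stood at 0.25 (adjusted p = 0.45), not called. With no low-count filter Fos was called at the same 0.77, with a smaller SE of 0.14 (adjusted p = 1.05e-06). Nr4a1 (0.30), Egr1 (-0.12) and Npas4 (-0.08) were not called, with adjusted p of 0.225, 0.684 and 0.948, though Nr4a1 was called with no low-count filter, at 0.29 (adjusted p = 0.00373). Without acetophenone 2 Npas4 stood at 1.35, and without mixture 3 Egr1 stood at 0.07 and Npas4 at 0.14, none of them called.

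Of 927 odorant receptor genes tested, 33 rose (3.56%) and 74 fell (7.98%), both below the shares of all genes, 11.6% and 13.8%. Receptors took 0.513%, 0.494% and 0.494% of counts with acetophenone and 0.403%, 0.481% and 0.497% with the mixture. Mixture 1 was the lowest, the groups overlapped, and the difference of -0.040 percentage points gave p = 0.3 in the exact permutation test (two-sided). Receptors called lower had a median of 13.3 CPM with acetophenone and 9.46 CPM with the mixture, and a median log2 fold change of -0.57. Receptors called higher had medians of 0.752 and 1.77 CPM, and a median log2 fold change of 1.25. How the level of a receptor bears on its being called was not tested. The counts depend on single libraries. Without mixture 1, 21 rose and 32 fell, without mixture 3, 8 and 77, without acetophenone 2, 9 and 47, and without acetophenone 3, 17 and 44. Without mixture 2, 69 rose and 80 fell, and without acetophenone 1, 52 and 60.

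Olfr1463 stood at 45.2, 48.4 and 45.6 CPM with acetophenone and at 23.3, 24.9 and 30.1 CPM with the mixture. It was lower in every mixture library, and its log2 difference was -0.83 (SE 0.11, adjusted p = 6.03e-05). Olfr60 fell by 0.75 (SE 0.12), from 24.4, 25.4 and 26.8 to 11.6, 16.3 and 17.6 CPM. Olfr1395 and Olfr1261 fell by 0.73 and 0.57, and Olfr94 and Olfr13, both scarce, by 1.54 and 1.33. Among the rises, Olfr819 stood at 0.122, 0.0836 and 0.127 CPM and 0.782, 0.627 and 0.868 CPM, with a no-odor mean of 0.592 CPM and a decanal mean of 1.11 CPM. The acetophenone libraries were the low ones, and the log2 fold change was 2.72 (SE 0.46, adjusted p = 0.000546). Olfr998 and Olfr875 rose by 2.91 and 2.07, with the same order of means: 0.0684 and 0.179 CPM with acetophenone against 0.356 and 0.718 with no odor. Olfr819, Olfr998 and Olfr875 were chosen for a small p in this contrast, and averaged 9.83, 7 and 10.8 counts over the 6 libraries. For none of them was acetophenone against no odor called in the same model (adjusted p = 0.412, 0.526 and 0.424). Olfr231 rose by 1.25 (SE 0.29), from 1.5, 0.836 and 0.847 to 2.17, 3.08 and 2.34 CPM.

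Class I receptors, the family shared with fish, and class II receptors differed in their medians, at 0.41 over 103 genes and -0.02 over 808. Of class I, 5 rose and 0 fell, and of class II, 28 rose and 73 fell. The class I rises depended on single libraries: 25 without mixture 2, 10 without acetophenone 1, 2 without mixture 1 or acetophenone 3, 1 without mixture 3 and 0 without acetophenone 2, with no fall in these fits. Class II falls ranged from 32 without mixture 1 to 79 without mixture 2, and class II rises from 7 without mixture 3 to 43 without mixture 2. The difference between the classes was not tested. Class I genes summed to 227, 151 and 185 CPM with acetophenone and to 268, 146 and 289 CPM with the mixture. Mixture 2 was the lowest of all 6 libraries and the other mixture libraries the highest, so the groups overlapped. With no odor the sums were 244, 253 and 254 CPM. Olfr160 (M72), a receptor known to respond to acetophenone, stood at 1.7, 1.34 and 1.65 CPM and 2, 1.06 and 2.34 CPM and was not called, at 0.21 (adjusted p = 0.625), or -0.03 without mixture 3. Its mean was 2.22 CPM with no odor and 3.6 CPM with decanal. In the same model decanal against acetophenone was called for Olfr160, at 1.20 (adjusted p = 0.00307). Acetophenone against no odor (adjusted p = 0.768) and the mixture against decanal (adjusted p = 0.887) were not. Olfr151 (M71), its close relative, was listed at 0 in all 12 libraries. None of 8 trace amine receptors was called.

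**Figure D4:**
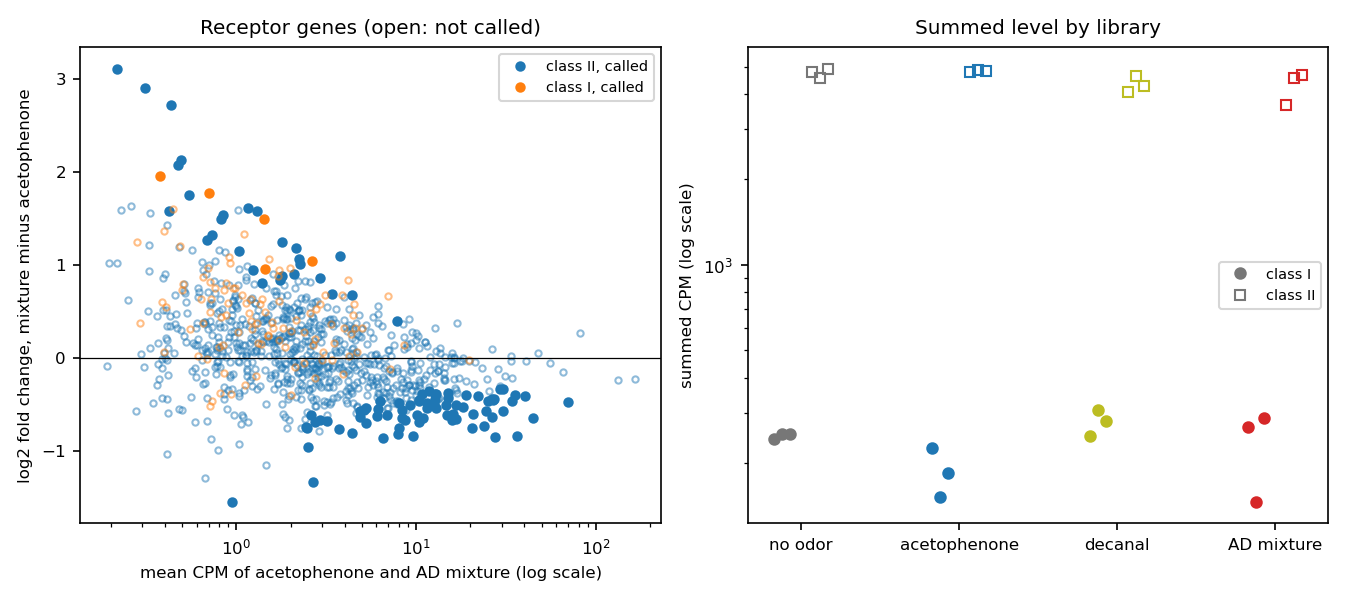
Left, log2 fold change (mixture minus acetophenone) of the odorant receptor genes of class I and class II against their mean CPM (log scale); filled points were called. Right, summed CPM of class I (circles) and class II (squares) genes in each of the 12 libraries (log scale). Called falls are class II receptors, with a higher median level than the called rises, and mixture 2 holds the lowest class I sum.

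Genes of aldehyde, alcohol and xenobiotic metabolism fell more often than they rose. In bulk tissue these falls cannot be placed in a cell type. Of 32 genes of aldehyde and alcohol metabolism 14 fell and 0 rose, and 12 fell with the offsets. The list summed to 10351 to 10670 CPM with acetophenone and to 9521 to 10667 CPM with the mixture, so the groups overlapped. Aldh3a2, the dehydrogenase of fatty aldehydes, stood at 132, 143 and 143 CPM with acetophenone and at 100.3, 105 and 101 CPM with the mixture. The groups were apart, and it fell by 0.45 (SE 0.05, adjusted p = 2.25e-05). Aox3, an aldehyde oxidase, fell by 0.55 (SE 0.05), from 75, 83.1 and 84.3 to 54.3, 53.8 and 57.7 CPM. The mitochondrial dehydrogenases Aldh6a1, of valine breakdown, and Aldh18a1, of proline synthesis, fell by 0.48 and 0.47.

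Of 24 genes of xenobiotic metabolism 9 fell and 1 rose, and with the offsets 12 fell and 0 rose. Cyp2g1, the cytochrome P450 of sustentacular cells and glands, stood at 2490.3, 2432 and 2600.2 CPM and 1894, 1967 and 2069 CPM and fell by 0.34 (SE 0.05, adjusted p = 7.59e-05). Cyp2f2, a P450 also found in respiratory epithelium, fell by 0.41 (SE 0.05), and Por, the reductase that microsomal P450s need, counted in the aldehyde and alcohol list, by 0.33. Cyp1a2 and Fmo2, a flavin monooxygenase, fell by 0.34 and 0.33, and Ugt2a1, the olfactory glucuronosyltransferase, by 0.22. Of 14 targets of the oxidative stress factor NRF2 7 fell and 1 rose. Txnrd1, thioredoxin reductase, fell by 0.50 (SE 0.05), G6pdx, which supplies NADPH, by 0.49, and Gclc, of glutathione synthesis, by 0.32.

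Of 16 sustentacular marker genes 5 fell and 3 rose, and with the offsets 8 fell and 2 rose. Among the rises was Muc2, a mucin, at 0.54 (SE 0.05). Lypd2, a surface protein with a short transcript, rose by 0.49 and stood at 0.05 with the offsets, not called. The list summed to 19729 to 20993 CPM with acetophenone and to 17613 to 19757 CPM with the mixture, ranges that touch. Of 16 microvillar, tuft and ionocyte genes 5 rose, Coch, a marker of microvillar cells, by 0.65 (SE 0.07) from 124, 126 and 141 to 193, 207 and 212 CPM. 2 fell, among them Atp6v1b1, a proton pump subunit, by 0.33. None of 10 horizontal basal cell genes was called, but 3 fell without mixture 1 and 1 without acetophenone 1. Of 18 genes of globose basal and dividing cells 3 rose, among them the proliferation marker Mki67 at 0.72 (SE 0.15), which marrow precursors express too. Of 14 ensheathing and Schwann cell genes 2 rose.

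More heat shock genes fell than rose. Of 14 tested, 8 fell and 2 rose, with a median of -0.27, and with the offsets 6 fell and 0 rose. Without acetophenone 2, 5 fell and 1 rose. The heat shock element GAANNTTC, the core to which heat shock factors bind (searched on both strands, which read alike), lay in the 250 bases before the start of 6 of 10 matched genes (60%), and in 7.73% of 27025 RefSeq genes. These 3 stretches show members that behaved differently in these data, with the element in capitals (RefSeq, GRCm38.p6).
Hspa1a (chr17:34972211-34972290, minus strand): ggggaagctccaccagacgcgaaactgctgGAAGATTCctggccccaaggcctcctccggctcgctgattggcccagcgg
Hspe1 (chr1:55088034-55088113, plus strand): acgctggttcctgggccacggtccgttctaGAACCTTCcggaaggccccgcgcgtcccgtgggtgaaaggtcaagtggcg
Hspd1 (chr1:55088022-55088101, minus strand): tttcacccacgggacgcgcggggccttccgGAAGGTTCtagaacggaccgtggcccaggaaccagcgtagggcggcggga

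Hspa1a, the inducible HSP70 gene, stood at 19.1, 62.8 and 24.4 CPM with acetophenone and at 20.7, 17 and 18.2 CPM with the mixture. Acetophenone 2 stood far above the other libraries, and the groups overlapped. The gene was called at -0.92 (SE 0.31, adjusted p = 0.0369), but without acetophenone 2 it stood at -0.23 and was not called. The call also ended with the offsets (-0.85), in DESeq2, and without any 1 mixture library (-0.87 to -1.01). Hspa1b, a near-identical copy whose reads cannot be separated with certainty, stood at -1.02, or -0.27 without acetophenone 2. Constitutive chaperones were steadier: Hspa8, the constitutive HSP70, fell by 0.45 (SE 0.10), from 1998, 2752 and 2253 to 1531, 1713 and 1875 CPM, and Hsp90ab1 fell by 0.37 (SE 0.06). The nucleotide exchange factors Hspa4 and Hsph1 fell by 0.42 and 0.60. Hspe1 and Hspd1 encode the partner chaperonins of mitochondria and lie head to head, so that the stretches printed for them overlap on opposite strands and share the element. Hspe1 rose by 0.36 (SE 0.06) and stood at 0.05 with the offsets, not called, and Hspd1 stood at -0.07 (adjusted p = 0.431), not called.

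For a few genes, acetophenone libraries held the highest levels of the 4 groups. Il33, an alarmin cytokine held in nuclei of epithelial cells, stood at 662, 713 and 654 CPM with acetophenone and at 443, 475 and 487 CPM with the mixture. It was lower in every mixture library, and its log2 difference was -0.53 (SE 0.05, adjusted p = 7.26e-06), and -0.50 with the offsets. The mean was 496 CPM with no odor and 417 CPM with decanal. Pnliprp1, a pancreatic-lipase-related gene, had the largest fall of the named genes. It stood at 0.891, 9.66 and 15.1 CPM with acetophenone and at 0.478, 0.627 and 0.13 CPM with the mixture, and acetophenone 1 was close to the mixture libraries. The log2 fold change was -4.38 (SE 0.80, adjusted p = 0.000924), with means of 0.416 CPM with no odor and 0.804 CPM with decanal. Dnase1, a secreted nuclease of glands, showed the same 2 high libraries, at 1.9, 20.5 and 15.1 CPM against 2.91, 2.75 and 3.12 CPM. Its call at -2.09 ended without each library other than acetophenone 1, with values from -2.15 to -1.54. The gland list summed to 20608 to 41656 CPM with acetophenone, a range that held the mixture's 33033 to 38448 CPM, and 3 of its 21 genes rose and 3 fell. Muc5b, the gel mucin of glands, rose by 0.53 (SE 0.11). Scgb1c1, a secretoglobin, rose by 0.49 and stood at 0.02 with the offsets, not called.

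Of 15 cytokine and chemokine genes 3 rose, with Ccl6, a chemokine of myeloid cells, at 1.14 (SE 0.21) and Cxcl12, which retains cells in marrow, at 0.35, and 1 fell, Il33. Of 18 interferon-stimulated genes 4 rose and 2 fell (8 rises without mixture 3, 2 without mixture 1 or acetophenone 2, 2 with the offsets), with Rsad2, an antiviral enzyme, at 0.87 (SE 0.20) and Ifit2 at -0.39 (SE 0.09).

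Motile cilia genes fell more often than they rose, 7 of 24 against 1. Ccdc40, which sets the spacing of the ciliary axoneme, fell by 0.70 (SE 0.06, adjusted p = 3.76e-06), from 232, 244 and 224 to 130.4, 150.4 and 152 CPM. Rsph4a, of the radial spokes, and Drc1, of the dynein regulator, fell by 0.70 and 0.48, and the ciliary gene Cfap57 by 0.99 (SE 0.10). Foxj1, the factor that drives ciliogenesis, fell by 0.25. Of 11 respiratory epithelium genes 3 fell and 2 rose, and with the offsets 6 fell and 0 rose. Sec14l3, an abundant lipid-binding protein, fell by 0.39 (SE 0.04), from 6721, 6764 and 7160.5 to 4903, 5331 and 5487 CPM. The summed respiratory list did not overlap, at 10898 to 11801 CPM with acetophenone and 8819 to 9262 CPM with the mixture. Sec14l3 alone took up most of this sum, so the sum largely follows that gene.

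Of 19 synapse and ion channel genes 3 rose and 3 fell, and of 19 cytoskeleton genes 6 rose and 3 fell. With the offsets 0 synapse genes rose and 3 fell, and the cytoskeletal rises numbered 2 without acetophenone 3 and 3 without mixture 2. The active-zone scaffold genes Bsn and Pclo rose by 0.43 and 0.31, neither called with the offsets (0.20 and 0.12). Map1b, a microtubule protein of axons, fell by 0.38 (SE 0.05), and the giant cytoskeletal linker gene Macf1 rose by 0.42. Syn1, the synaptic vesicle protein synapsin, stood at 82.8, 85.9 and 78.1 CPM with acetophenone and at 41.8, 47.5 and 48 CPM with the mixture and fell by 0.84 (SE 0.06, adjusted p = 9.59e-07). The axonal motor gene Kif5a fell by 0.62 (SE 0.06). Nefh, a neurofilament of large axons, stood at 2.71, 3.22 and 3.22 CPM and 2.08, 2.02 and 1.74 CPM and was called at -0.65 (SE 0.22, adjusted p = 0.046), a call kept without acetophenone 1 and in none of the other 5 fits that leave out a library (-0.71 to -0.58), nor with the offsets (-0.53) or no low-count filter (-0.65). Of 56 clustered protocadherins 1 rose and 2 fell.

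Of 41 proteasome genes 12 rose and 8 fell. The balance turned with the offsets, where 6 rose and 10 fell. Without acetophenone 2, 6 rose and 6 fell, and 8 rose without mixture 1, mixture 3 or acetophenone 3. The large regulatory subunits Psmd1 and Psmd2 fell by 0.53 (SE 0.05) and 0.43 (SE 0.05), and the small core subunit Psmb6 rose by 0.30 but stood at -0.02 with the offsets. Uba1, the main ubiquitin-activating enzyme, stood at 357, 351 and 358 CPM and 203, 219 and 212 CPM and fell by 0.75 (SE 0.06, adjusted p = 1.07e-06). The coat protein genes Sec31a, Copg1 and Ap1b1 fell by 0.70, 0.67 and 0.66. Uba1 and these 3 coat genes were chosen after their values were seen. Of 17 genes of the unfolded protein response 5 rose and 2 fell, with Manf, a secreted endoplasmic reticulum protein, at 0.38 (SE 0.06) and Asns, asparagine synthetase, at -0.38 (SE 0.08).

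Metabolic and hormonal lists held more falls than rises, other than the glucocorticoid-responsive list. Of 18 clock genes 6 fell and 1 rose, and with the offsets 4 fell and 2 rose. Nr1d1, the nuclear receptor that represses Arntl, fell by 0.57 (SE 0.06), from 112, 102 and 115 to 79.9, 71.7 and 69.5 CPM. Arntl itself fell by 0.42 (SE 0.08). Cry1 and Cry2, the repressors of the clock, fell by 0.36 and 0.39. Of 19 lipid and sterol genes 4 fell and 0 rose (7 falls without mixture 1, 2 without mixture 3, 2 with the offsets), with Acly, which makes cytosolic acetyl-CoA, at -0.54 (SE 0.05) and Sqle, of cholesterol synthesis, at -0.30 on the log2 scale. Of all genes 13.8% fell, and 10.8% with the offsets. The 2 lipid falls with the offsets are near that share. Of 13 glucocorticoid-responsive genes 6 rose and 2 fell, among the rises Cebpd, a transcription factor also induced in inflammation, at 0.59 (SE 0.13), the metallothionein gene Mt1 at 0.45 (SE 0.06) and Mt2, which stood at 0.57 and, with the offsets, at 0.13, not called.

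Other genes among the 12 largest falls had low levels. Npcd, a pentraxin-related gene, stood at 4.13, 3.97 and 5.63 CPM with acetophenone and at 0.521, 0.675 and 1.65 CPM with the mixture and fell by 2.26 (SE 0.35, adjusted p = 0.00029). Its mean was 4.58 CPM with no odor and 0.0839 CPM with decanal, and its reads can be shared with overlapping genes. Serinc4, of a family of membrane proteins, fell by 1.36 (SE 0.24), from 15.4, 19.9 and 23.7 to 6.47, 10.6 and 6.07 CPM. Akap3, a kinase anchor, fell by 1.01, Adgb, a globin of ciliated cells, by 0.91, and Iqgap3, a scaffold of dividing cells, by 0.96. Among the 12 largest rises, the immunoglobulin segment Igkv10-96 rested on mixture 1, with 116 counts there and 10 and 8 in the other mixture libraries. It stood at 4.08, and at 1.84 without mixture 1, where it was not called. Rhag, a red cell membrane gene, rose by 3.77 (SE 0.71).

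**Figure D5:**
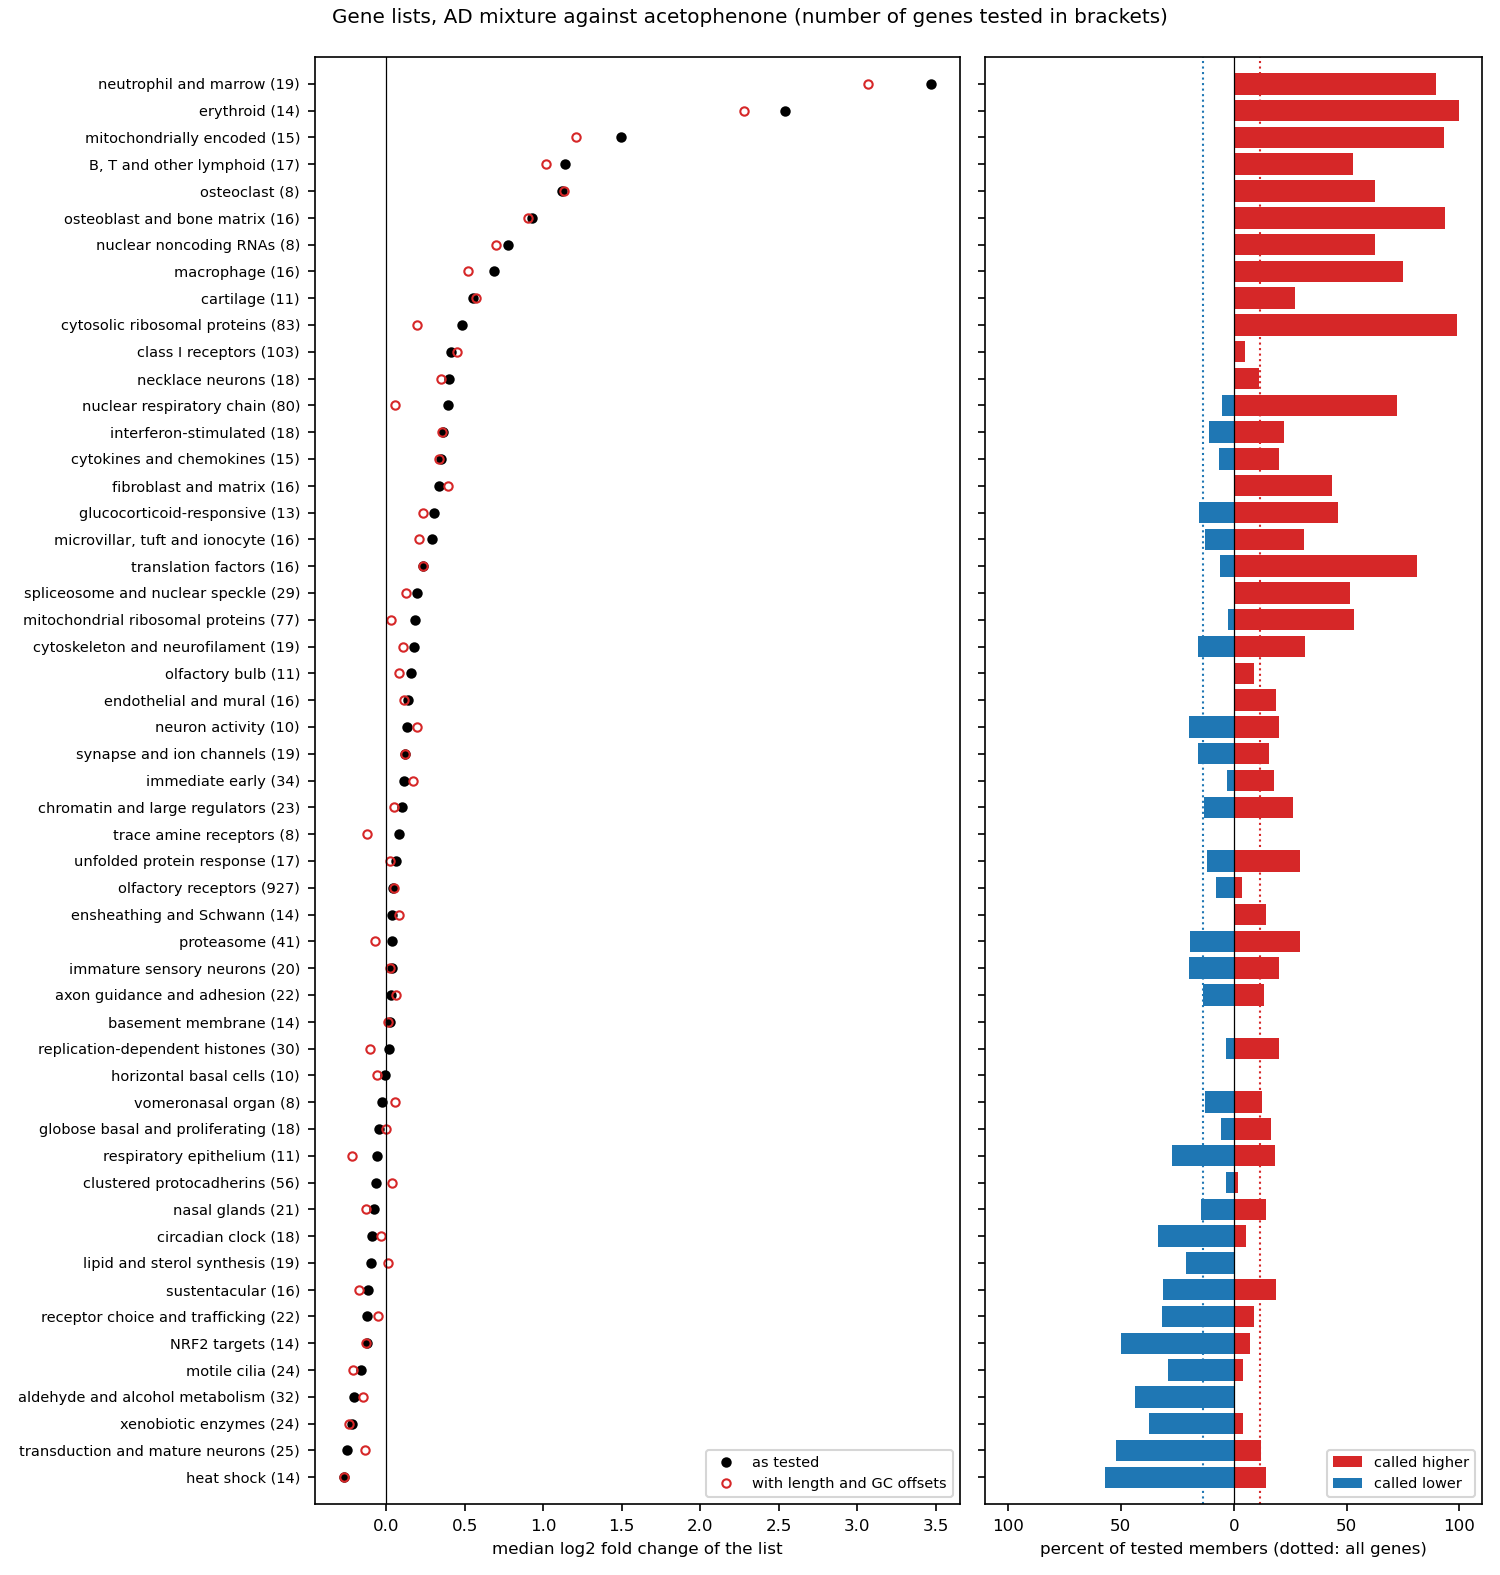
Gene lists with at least 8 tested genes, ordered by median log2 fold change (mixture minus acetophenone). Left, median as tested (black) and with length and GC offsets (red, open). Right, percent of tested members called higher (red, right of 0) and lower (blue, left of 0), with dotted lines at the shares of all genes, 11.6% and 13.8%. Marrow and erythroid genes are at the top and heat shock genes at the bottom.

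The mixture was also set against decanal alone. With edgeR in the same model 0 genes were called between the mixture and decanal, and 1090 genes (5.58%) had an unadjusted p under 0.05. mt-Nd1 differed from decanal by 0.09 on the log2 scale (SE 0.08), Rps19 by 0.07 (SE 0.05), Aldh3a2 by -0.04 (SE 0.05) and Adcy3 by -0.11 (SE 0.08). S100a9 was higher in the 3 mixture libraries than in the 3 decanal libraries, by 0.57 (SE 0.20, adjusted p = 0.887), and was not called. For the first 4 of these genes the acetophenone and no-odor means were close: mt-Nd1 averaged 250.2 against 214 CPM, Rps19 93.8 against 90.6, Aldh3a2 139 against 134 and Adcy3 1114 against 1108 CPM. S100a9 averaged 4.4 CPM with acetophenone against 9.92 CPM with no odor. These means come from 3 libraries each.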

How the data were processed

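The deposited table of the batch holds expected counts per Ensembl gene, estimated by the authors and not scaled between libraries. The submitters' processing notes name STAR 2.7.10b, Salmon 1.10.1, R 4.4.2 and the build GRCm39. The role of each tool and the annotation release are not given in the sources used here. Of 57010 genes, 52029 took a symbol from GENCODE M21 and genes without one held 0.313% of counts. Values that were not whole (12.8%) were rounded, by at most 0.5 counts.

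Genes were filtered (filterByExpr), scaled by TMM and fitted with edgeR 4.0.16 (quasi-likelihood test, R 4.3.3) over 12 libraries in 4 groups with no block. Tests were two-sided, and p-values were adjusted by Benjamini-Hochberg over all 19525 genes. All adjusted p come from this fit unless another is named. Each SE was obtained from the fold change and its F statistic (absolute log2 value over the root of F). Offsets were loess fits per library, on transcript length and GC content, of each gene's log2 CPM minus its mean over the 12 libraries. Length and GC content came from the longest GENCODE M21 transcript, found for 97.5% of genes. Shares were compared by an exact permutation test. The p-values measure the spread between these mice only, and the pipeline was tested on simulated data.

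Named genes were the 12 largest rises and falls without overlap and averaging 20 counts or more, the 4 members of smallest p of each of 55 lists, 4 receptors each way, and genes always given; other genes named are list members given as examples, or are said to be chosen by their values. Some genes that the rule names are not reported here. Members and lists were chosen with earlier results of these data known. The class of a receptor came from the family number among its RefSeq synonyms. Alternatives were DESeq2 1.42.0 (its size factors and its test), 2 other filters, a fit of 6 libraries, the replicate block, length and GC offsets, another scaling set, and leaving out each library. The other batch was not analysed here.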

Additional observations from a re-analysis of the deposited data

How the results depend on the processing

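The count of called genes stayed within 1.5 times of 4947 under all 15 alternatives, from 3598 with length and GC offsets and the replicate block to 5242 with no low-count filter, and from 3779 to 4777 without any 1 library. Called receptors numbered 107, 166 with no low-count filter (61 higher, 105 lower), and 53 to 149 without any 1 library. The share of receptor calls that were higher was 30.8%, 9.41% without mixture 3, 16.1% without acetophenone 2, 46.3% without mixture 2 and 46.4% without acetophenone 1. The difference in the mitochondrial share ran from 0.475 to 0.54 percentage points without any 1 library, and that in the receptor share from -0.058 to -0.011.

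Of 159 called genes that were followed, 135 kept call and direction under every alternative, 146 without each library and 142 with the length and GC offsets. Many of these genes were picked for a large fold change or a small p, so these counts do not describe all called genes. Of all 4947 called genes, 3174 kept call and direction with the length and GC offsets. Direction reversed for S100a5 (-0.076 with the offsets, -0.074 with offsets and replicate block), Psmb6 (-0.016 in both), Neat1 (-0.14 in both), and Npas4 (0.028 with the offsets, 0.17 with offsets and block, 0.067 with the block). Without any 1 library, Npas4 ran from -0.55 to 1.35, Kirrel2 from -0.068 to 0.46, Egr1 from -0.38 to 0.070, Olfr160 from -0.032 to 0.46 and Omp from -0.060 to 0.092, none of them called except Kirrel2, without acetophenone 2. The cause was not tested, other than that offsets remove length and GC trends by construction.

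The replicate numbers share no stated litter or day. The deviations of same-numbered libraries correlated at 0.065, 0.050 and 0.079, each library best with its own number. The main fit took no pairs, since no shared litter or day is stated. These correlations also lie under 0.1, the minimum set here for a block. The replicate block gave 4777 called genes and 98 receptors (24 higher, 74 lower), and ended calls that included Nefh, Jun, Hspa1a and Hspa1b. Beyond the values given beside the lists, the rises among microvillar genes fell from 5 to 3 without acetophenone 2 and with the offsets, and those of the unfolded protein response to 3 without mixture 1 or acetophenone 1. Among the lists described, the remaining counts of 4 or fewer moved by at most 2 genes without any 1 library. Receptors and marrow genes under 1 CPM rest on few counts, which limits the precision of their folds.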
